A study of Mus musculus with 12 samples.

Results

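Lymphocytes were followed here through 10 genes of the T, B and NK lineages on arrays of mouse white fat. They were chosen by name, and each was read from the probe set that the annotation assigns to that gene alone. All 10 were found, each with 1 such probe set, among 22180 genes tested. They are the CD3 chains Cd3e, Cd3g and Cd3d, the co-receptors Cd4 and Cd8a, the tetraspanin Cd37, the B cell antigen Ms4a1 (CD20), the B cell receptor chains Cd79a and Cd79b, and the cytotoxic granule gene Nkg7.

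The material came from freshly isolated cells and tissue of C57BL/6 mice, with 12 arrays in 4 groups of 3 biological replicates. Whole adipose tissue (AT) was taken from the inguinal subcutaneous depot (SAT) and from the perigonadal visceral depot (VAT). Adipose progenitors (AP) were prepared from the same 2 kinds of depot by enzymatic dissociation, followed by removal of lineage-positive blood cells and of CD31-positive endothelial cells with antibody-coated magnetic beads. The series' description speaks of depots from several mice, and it does not say whether an array holds the RNA of 1 animal or of a pool. Age, sex and diet of the animals are not given in the sources used here. Nor do the labels say whether replicates with the same number share animals. Single arrays are named here by preparation, depot and replicate, as in AT/SAT 1. AP is defined by what the beads removed, and any lymphocyte that escaped them stayed in the preparation.

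T cells recognise antigen through a receptor that signals by way of the CD3 chains, and CD4 or CD8 binds the presenting MHC molecule beside it. B cells carry a membrane immunoglobulin that signals through CD79a and CD79b. NK cells and cytotoxic T cells kill with granules whose membrane holds Nkg7. Mouse fat holds resident T cells, including regulatory ones, and B cells in clusters of the visceral depots, while the inguinal depot also surrounds a lymph node.

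The genes Cd3g, Cd3d and Cd3e lie side by side on mouse chromosome 9, with no other gene between them in the RefSeq annotation of GRCm38.p6. Yet their array values did not move alike, and those of Cd3d stayed between 4.29 and 4.98 (log2) on all arrays. The 250 bases before their transcription starts follow here beside those of Cd79a, the B cell gene called between the depots of whole tissue. They come from RefSeq (GRCm38.p6), where 7 of the 10 genes matched. Capitals mark AGGAAGT, a letter run of ETS family sites, and CACCTG, an E-box, each on either strand. Both motifs were chosen after the sequences were seen.
Cd3e, chr9:45009612-45009861, minus strand: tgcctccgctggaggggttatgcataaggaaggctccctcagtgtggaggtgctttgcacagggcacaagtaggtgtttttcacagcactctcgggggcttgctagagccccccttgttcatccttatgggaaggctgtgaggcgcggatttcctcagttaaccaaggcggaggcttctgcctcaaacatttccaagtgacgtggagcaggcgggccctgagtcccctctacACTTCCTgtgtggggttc
Cd3g, chr9:44980432-44980681, minus strand: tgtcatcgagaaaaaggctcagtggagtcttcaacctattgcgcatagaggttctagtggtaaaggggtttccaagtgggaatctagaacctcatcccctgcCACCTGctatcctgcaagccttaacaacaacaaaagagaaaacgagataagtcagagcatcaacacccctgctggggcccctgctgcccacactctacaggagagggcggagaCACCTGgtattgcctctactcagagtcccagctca
Cd3d, chr9:44981536-44981785, plus strand: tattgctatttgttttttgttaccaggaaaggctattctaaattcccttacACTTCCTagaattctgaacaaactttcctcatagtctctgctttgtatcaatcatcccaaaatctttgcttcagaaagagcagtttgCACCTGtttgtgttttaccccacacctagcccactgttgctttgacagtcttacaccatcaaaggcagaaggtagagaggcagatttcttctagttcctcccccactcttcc
Cd79a, chr7:24897247-24897496, plus strand: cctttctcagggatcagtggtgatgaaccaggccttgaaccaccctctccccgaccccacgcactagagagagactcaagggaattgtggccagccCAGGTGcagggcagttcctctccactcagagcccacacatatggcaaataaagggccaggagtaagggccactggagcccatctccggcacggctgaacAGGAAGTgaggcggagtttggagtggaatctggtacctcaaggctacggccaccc

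Cd3g and Cd3d are read away from each other, on opposite strands. The AGGAAGT letters were present before Cd3e, Cd3d, Cd37 and Cd79a, in 4 of the 7 windows, and in 7.69% of 32851 promoter windows of this length in the RefSeq table. The CACCTG letters were present before Cd3g, Cd3d, Cd37 and Cd79a, also in 4 of 7, and in 17.2% of all windows. A match describes the letters only. The Cd3e and Cd3d windows shared AGGAAGT, although only Cd3e of this pair was called between AP and AT.

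The values are log2 intensities, so a step of 1 is a 2-fold change, and levels are compared only within a gene. A value of 4.09 marks the 40th percentile of all probe set values, and group means under it are taken as near background. Differences were tested with limma over all 22180 genes and called at a Benjamini-Hochberg adjusted p under 0.05. With 3 arrays a group, these p-values rest on the spread among the arrays at hand, which may be partly technical. Each gene has a single estimate of that spread, shared by AP and AT. Where AT varied more than AP, intervals within AP tend to be too wide and those within AT too narrow. Cell type markers went with the labels. In AP the progenitor receptor Pdgfrb rose by 3.16 (SE 0.15), while the lipid droplet gene Cidec fell by 6.21. The CD31 gene Pecam1 fell by 2.9 and the leukocyte antigen Ptprc fell by 2.36. In such bulk samples a value cannot separate fewer cells of a type from less RNA per cell.

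Averaged over both depots, 7 of the 10 lymphocyte genes were lower in AP than in AT, namely Cd3e, Cd3g, Cd4, Cd37, Ms4a1, Cd79a and Cd79b, and 0 were higher. Of all genes, 20.5% were lower and 22% were higher. No lymphocyte gene was higher at an unadjusted p under 0.05 either. The median difference of the 10 genes was -0.63, against 0.04 for all genes. The size and the stability of the difference varied greatly from gene to gene, and only Cd3g and Cd37 had AP values below AT values on every array, against 13% of all genes. These directions depend on the scaling. With arrays levelled on 11 housekeeping genes, Cd3g and Cd37 were called lower and Cd3d, Cd8a and Nkg7 higher, while the typical gene was itself higher in AP, at 0.63. Of the 22180 genes, 17623 were then called higher and 1172 lower. The housekeeping scaling shifts all genes of an array by the same amount. Differences measured from the median of all genes are therefore equal under both scalings by construction, which says nothing on which scaling holds. They were, for example, -1.72 for Cd3g, -0.67 for Cd3e and -0.59 for Cd4.

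**Figure D1:**
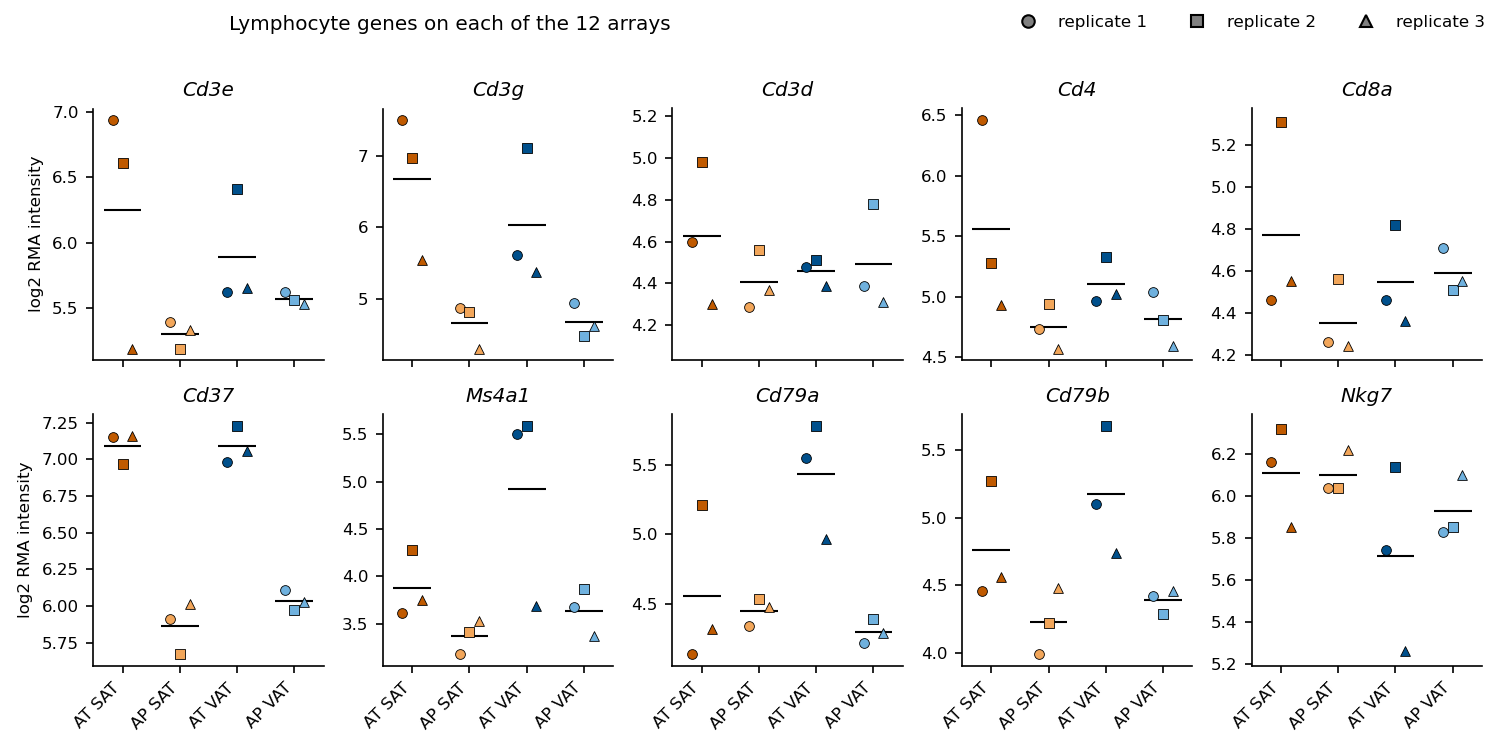
Log2 RMA intensity of the 10 lymphocyte genes on each of the 12 arrays, by group, with the replicate number as marker shape and the group mean as a bar; each panel has its own vertical range. The AP values lie close together, whereas the AT values of Cd3e, Cd3g, Ms4a1 and Cd79a are spread widely, and Cd37 alone has tight and separate AP and AT values in both depots.

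The CD3 chains differed among themselves. Cd3g (Entrez Gene 12502), the gamma chain, was at 7.51, 6.98 and 5.54 on AT/SAT 1, 2 and 3, and at 5.61, 7.11 and 5.37 on AT/VAT 1, 2 and 3. Its AP values, here and for the other genes in the same replicate order, were 4.87, 4.81 and 4.30 in SAT, and 4.94, 4.47 and 4.61 in VAT. All AP values were thus below all AT values, and the tissue values fell into a high set, AT/SAT 1, AT/SAT 2 and AT/VAT 2, and a lower set. The group means were 4.66 ± 0.31 (SD, n = 3) in AP and 6.68 ± 1.02 in AT of SAT, and 4.67 ± 0.24 and 6.03 ± 0.94 in VAT. The log2 difference, AP minus AT, was -2.02 in SAT (SE 0.44, 4.05-fold, limma adjusted p = 0.00196) and -1.36 in VAT (SE 0.44, 2.56-fold, adjusted p = 0.0273). Over both depots it was -1.69 (SE 0.31, 3.22-fold, limma adjusted p = 0.000346). The call in VAT was lost when limma was fitted without AT/VAT 2, where Cd3g was at -0.82 (adjusted p = 0.153), or without AP/VAT 2 or AP/VAT 3 (adjusted p = 0.0942 and 0.0657). It was also lost with limma's trended, robust variance (adjusted p = 0.0987).

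Cd3e (Entrez Gene 12501), the epsilon chain that pairs with gamma and with delta, followed the same arrays with smaller steps. It was at 6.94, 6.61 and 5.19 in AT from SAT, and at 5.62, 6.41 and 5.65 in AT from VAT. The AP arrays read 5.39, 5.19 and 5.33 in SAT, and 5.62, 5.56 and 5.53 in VAT. AT/SAT 3 was as low as the lowest AP array, so the groups overlapped, and AT/VAT 1 equalled the highest AP value. The difference was -0.94 in SAT (SE 0.32, limma adjusted p = 0.0349) and -0.32 in VAT (SE 0.32, 95% interval -1.01 to 0.37, adjusted p = 0.491). Over both depots it was -0.63 (SE 0.23, limma adjusted p = 0.0357). In SAT the limma call was lost on leaving out any single AP/SAT array, AT/SAT 1 or AT/SAT 2 (adjusted p = 0.0647 to 0.191), with a trended, robust variance (0.0709) or with only the 2 groups in the fit (0.0768). The difference ranged from -0.60 without AT/SAT 1 to -1.47 without AT/SAT 3. Under the housekeeping scaling it was -0.29 in SAT, 0.22 in VAT and -0.04 over both depots, and none of these was called. Over both depots 9 of the 12 fits that left out 1 array lost the limma call, all but those without AT/SAT 3, AT/VAT 1 or AT/VAT 3 (adjusted p = 0.0517 to 0.0974).

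Cd3d (Entrez Gene 12500), the delta chain, showed little of this pattern. In AT it was at 4.60, 4.98 and 4.30 in SAT and at 4.48, 4.51 and 4.39 in VAT. The AP values were 4.29, 4.56 and 4.37 in SAT and 4.39, 4.78 and 4.31 in VAT. AP and AT overlapped in both depots, and only AT/SAT 2 stood a little above the rest. The differences were -0.22 in SAT (95% interval -0.56 to 0.12) and 0.03 in VAT (95% interval -0.31 to 0.37), and neither passed (limma adjusted p = 0.349 and 0.899). The value in VAT was -0.05 under quantile normalization and -0.08 under cyclic loess. Under the housekeeping scaling it was 0.58, called higher in AP by limma (adjusted p = 0.0388), beside a median of all genes of 0.58.

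The co-receptors were led by single tissue arrays. Cd4 (Entrez Gene 12504), the co-receptor of helper T cells, was at 6.46 on AT/SAT 1, and at 5.28 and 4.93 on AT/SAT 2 and 3. In AT from VAT it was at 4.96, 5.33 and 5.02. In AP its values were 4.73, 4.94 and 4.57 in SAT, and 5.04, 4.81 and 4.59 in VAT. AT/SAT 1 stood above all other arrays, and the rest of the tissue overlapped with AP. The difference was -0.81 in SAT (SE 0.28, limma adjusted p = 0.0343), -0.29 in VAT (SE 0.28, adjusted p = 0.469) and -0.55 over both (SE 0.20, adjusted p = 0.0332). In SAT the limma fit without AT/SAT 1 gave -0.36 (adjusted p = 0.146), and the call was also lost without AP/SAT 1 (adjusted p = 0.0806) or AP/SAT 3 (adjusted p = 0.111), with a trended, robust variance (0.0514) or with only the 2 groups in the fit (0.0856). Over both depots limma gave -0.32 without AT/SAT 1 (adjusted p = 0.0342), and the call was lost without AP/SAT 1, AP/SAT 3, AP/VAT 2, AP/VAT 3 or AT/VAT 2 (adjusted p = 0.0583 to 0.0778). The housekeeping scaling gave -0.16 in SAT, 0.25 in VAT and 0.05 over both, and none of these was called.

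Cd8a (Entrez Gene 12525), the co-receptor of cytotoxic T cells, had its highest value on AT/SAT 2, at 5.31, beside 4.46 and 4.55 on AT/SAT 1 and 3. In AT from VAT it was at 4.46, 4.82 and 4.36. AP arrays were at 4.26, 4.56 and 4.24 in SAT and at 4.71, 4.51 and 4.55 in VAT. Different tissue arrays were thus highest for Cd4 and for Cd8a, and AP and AT overlapped for Cd8a in both depots. The differences were -0.42 in SAT (SE 0.19, 95% interval -0.82 to -0.02) and 0.04 in VAT (SE 0.19, 95% interval -0.36 to 0.45). Neither passed (limma adjusted p = 0.112 and 0.889), although in SAT the adjusted p was 0.0427 without AT/SAT 1. Under the housekeeping scaling the Cd8a difference in VAT was 0.59, called higher in AP by limma (adjusted p = 0.0359), beside a median of all genes of 0.58.

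AP and AT stood apart most regularly for Cd37 (Entrez Gene 12493), a tetraspanin found mainly on B cells and also on other leukocytes. It was at 7.15, 6.97 and 7.16 in AT from SAT, and at 6.98, 7.23 and 7.06 in AT from VAT. The AP level was 5.91, 5.67 and 6.01 in SAT, and 6.11, 5.97 and 6.03 in VAT. The tissue and progenitor values were separated by a wide gap in both depots, with little spread inside any group. The difference was -1.23 in SAT (SE 0.11, 2.35-fold, limma adjusted p = 5.04e-07) and -1.05 in VAT (SE 0.11, 2.08-fold, adjusted p = 2.81e-06). Over both depots it was -1.14 (SE 0.08, 2.21-fold, limma adjusted p = 1.14e-08). Leaving out any 1 array kept it between -1.30 and -1.13 in SAT and between -1.11 and -0.98 in VAT. Under the housekeeping scaling limma gave -0.58 in SAT (adjusted p = 0.0302) and -0.51 in VAT (adjusted p = 0.0651).

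The 3 genes restricted to the B lineage moved with certain arrays of visceral tissue. Ms4a1 (Entrez Gene 12482), the surface antigen CD20, was at 5.50 and 5.59 on AT/VAT 1 and 2 and at 3.69 on AT/VAT 3. In AT from SAT it was at 3.61, 4.28 and 3.75. AP preparations had 3.18, 3.41 and 3.53 in SAT, and 3.68, 3.87 and 3.37 in VAT. Both AP means and that of AT from SAT, at 3.88, were near background, so differences between these 3 are near the limit of measurement, and the size of a difference from any of them is uncertain. The difference, AP minus AT, was -1.29 in VAT (SE 0.36, limma adjusted p = 0.0118) and -0.51 in SAT (SE 0.36, adjusted p = 0.339), where the replicates nonetheless did not overlap. The limma call in VAT was lost without AT/VAT 1 (adjusted p = 0.0687) or AT/VAT 2 (adjusted p = 0.0699), and in SAT the adjusted p was 0.033 without AT/VAT 3 and 0.0482 with only the 2 groups in the fit. Over both depots Ms4a1 was at -0.90 (SE 0.26, limma adjusted p = 0.00969), and at -0.30 without a call under the housekeeping scaling.

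Cd79a (Entrez Gene 12518), the alpha chain of the B cell receptor complex, was at 5.55, 5.78 and 4.97 in AT from VAT. In AT from SAT it was at 4.14, 5.21 and 4.32. Values in AP were 4.34, 4.54 and 4.48 in SAT, and 4.22, 4.39 and 4.29 in VAT. All 3 visceral tissue arrays stood above all AP arrays, while in SAT only AT/SAT 2 did. The difference in VAT was -1.13 (SE 0.23, 2.19-fold, limma adjusted p = 0.00129), a call that held on leaving out any single array. In SAT it was -0.10 (SE 0.23, 95% interval -0.60 to 0.39, limma adjusted p = 0.80), and it was 0.22 without AT/SAT 2. Under the housekeeping scaling it was 0.55 in SAT, called higher in AP by limma (adjusted p = 0.0382), beside a median of all genes of 0.68. Over both depots Cd79a was at -0.62 (SE 0.16, limma adjusted p = 0.00618), and at -0.02 without a call under the housekeeping scaling.

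Cd79b (Entrez Gene 15985), the beta chain, was at 5.10, 5.68 and 4.74 in AT from VAT and at 4.46, 5.27 and 4.56 in AT from SAT. Among AP arrays it was 3.99, 4.22 and 4.48 in SAT, and 4.42, 4.29 and 4.46 in VAT. The order of the arrays within AT was close to that of Cd79a, with the highest value on AT/SAT 2 and AT/VAT 2. The difference was -0.78 in VAT (SE 0.23, limma adjusted p = 0.0141) and -0.53 in SAT (SE 0.23, adjusted p = 0.0892). The limma call in VAT was lost without AP/VAT 2 (adjusted p = 0.0544) or AT/VAT 2 (adjusted p = 0.0817), and the adjusted p in SAT was 0.043 without AT/VAT 2. Over both depots Cd79b was at -0.66 (SE 0.16, limma adjusted p = 0.00327). The housekeeping scaling gave -0.24 in VAT, 0.12 in SAT and -0.06 over both, and none of these was called.

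Nkg7 (Entrez Gene 72310), a membrane protein of cytotoxic granules in NK cells and cytotoxic T cells, did not separate AP from AT. Its AT values were 6.16, 6.32 and 5.85 in SAT and 5.74, 6.14 and 5.26 in VAT. For AP they were 6.04, 6.04 and 6.22 in SAT and 5.83, 5.85 and 6.10 in VAT. The lowest value of all was that of AT/VAT 3. The differences were -0.01 in SAT (95% interval -0.40 to 0.38) and 0.21 in VAT (95% interval -0.17 to 0.60), and neither passed (limma adjusted p = 0.977 and 0.412). Under the housekeeping scaling Nkg7 was higher in AP in both depots, by 0.64 and 0.76, beside a median of all genes of 0.68 and 0.58.

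Counted by depot, 4 of the 10 genes were lower in AP from SAT (Cd3e, Cd3g, Cd4 and Cd37) and 5 in AP from VAT (Cd3g, Cd37, Ms4a1, Cd79a and Cd79b), and 0 were higher in either. The background shares were 16.3% lower and 16.1% higher in SAT, and 16.8% lower and 15.8% higher in VAT. At an unadjusted p under 0.05, 6 were lower in SAT and 5 in VAT, and 0 were higher. AP values lay below AT values with no overlap for 3 genes in SAT (Cd3g, Cd37 and Ms4a1), against 21.1% of all genes, and for 4 in VAT (Cd3g, Cd37, Cd79a and Cd79b), against 20.4%. T cell genes made up most of the calls in SAT and B cell genes most of those in VAT. The test of that difference between the depots, the interaction, called 0 of the 10 genes with limma, against 2.15% of all genes, and 1 had an unadjusted p under 0.05. That gene was Cd79a, with an interaction, the AP minus AT difference in VAT minus that in SAT, of -1.03 (SE 0.33, limma adjusted p = 0.145). In limma fits without AT/SAT 2 its interaction was -1.36 (adjusted p = 0.0126), without AT/VAT 3 that of Ms4a1 was -1.40 (adjusted p = 0.014), and without AT/SAT 3 that of Cd3e was 1.15 (adjusted p = 0.0284).

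**Figure D2:**
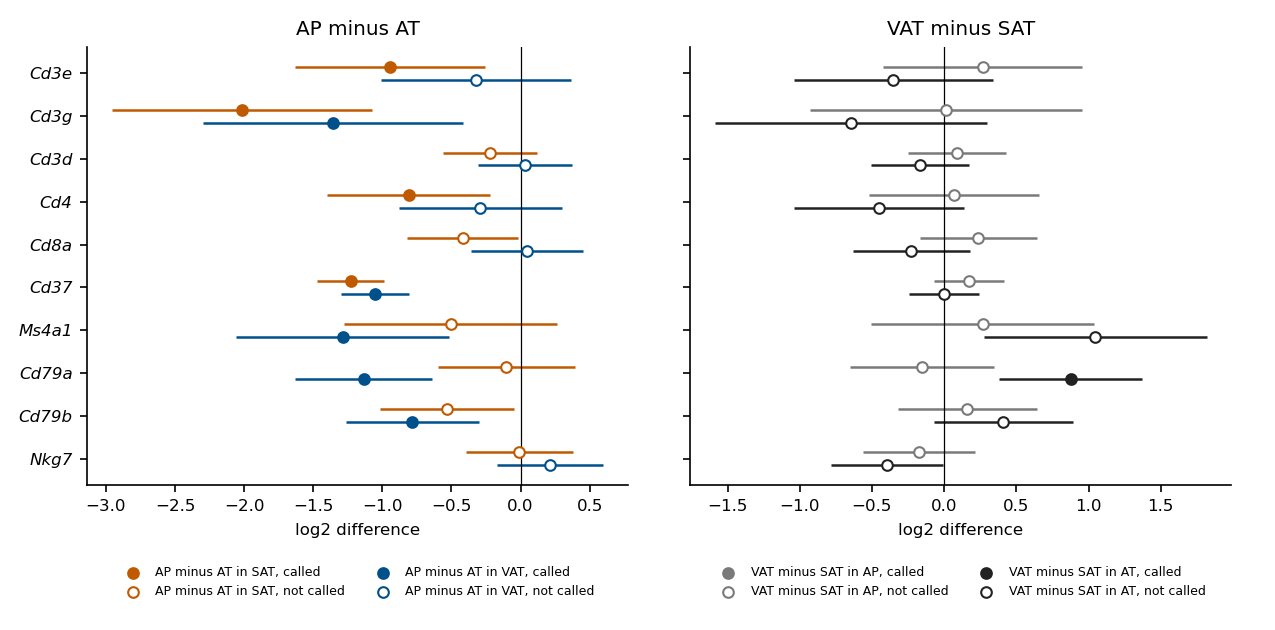
Log2 differences with 95% intervals from the limma fit, AP minus AT in each depot on the left and VAT minus SAT in each preparation on the right; filled points passed an adjusted p of 0.05 and open points did not. Cd3g and Cd37 are filled in both depots, the B cell genes Ms4a1, Cd79a and Cd79b in VAT only and Cd3e and Cd4 in SAT only, while the interaction called 0 of the 10 genes.

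Between the depots of whole tissue, 1 of the 3 genes restricted to the B lineage passed the test. Cd79a was 1.84-fold higher in AT from VAT, a log2 difference of 0.88 (SE 0.23, limma adjusted p = 0.0439), with group means of 5.43 ± 0.42 (SD, n = 3) and 4.56 ± 0.57. The visceral and subcutaneous replicates overlapped, because AT/SAT 2, at 5.21, lay above AT/VAT 3, at 4.97. It was the only one of the 10 genes called higher, against 2.8% of all genes, and 0 were called lower, against 1.75%. At an unadjusted p under 0.05, 2 genes were higher and 1 was lower. In the same limma fit Ms4a1 was at 1.05 (SE 0.36, adjusted p = 0.14), Cd79b at 0.41 (SE 0.23, adjusted p = 0.415) and Nkg7 at -0.40 (SE 0.18, adjusted p = 0.298). The call of Cd79a was lost in 10 of the 12 limma fits that left out 1 array, all but those without AT/SAT 2 or AT/VAT 3 (adjusted p = 0.059 to 0.202), and when only these groups entered the fit (adjusted p = 0.178). Ms4a1 was called at 1.67 in the limma fit without AT/VAT 3 (adjusted p = 0.000155) and at 1.37 under the housekeeping scaling (adjusted p = 5.6e-06).

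The T cell genes pointed the other way between the tissues without passing. Cd3g was at -0.65 (SE 0.44, 95% interval -1.59 to 0.29), Cd4 at -0.45 (SE 0.28, 95% interval -1.04 to 0.14) and Cd3e at -0.35 (SE 0.32, 95% interval -1.04 to 0.34). Without AT/SAT 3, Cd3e was at -0.88 (limma adjusted p = 0.0161). Cd37 was equal within its spread, at 7.09 ± 0.11 in SAT and 7.09 ± 0.13 in VAT (SD, n = 3), with a 95% interval of the difference from -0.25 to 0.24.

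Between AP from VAT and AP from SAT, limma called 0 of the 10, against 5.64% of all genes, a share at which 0 of 10 is no result about these genes, and 0 had an unadjusted p under 0.05. The differences ranged from -0.17 for Nkg7 to 0.27 for Cd3e and Ms4a1. Cd3e was the only one whose replicates did not overlap, at 5.57 ± 0.05 in VAT and 5.30 ± 0.10 in SAT (SD, n = 3), as for 9.87% of all genes. Its 95% interval ran from -0.42 to 0.96, and the intervals were wider for Cd3g, from -0.93 to 0.95, and Ms4a1, from -0.50 to 1.04. These intervals rest on a spread that AP and AT share. For Cd3e the SD was 0.08 in AP and 0.73 in AT, so its interval here mostly reflects the tissue spread.

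That spread was itself marked. The SD between replicates of AT, pooled over the depots, was above the 95th percentile of all genes for 8 of the 10 genes, all but Cd3d and Cd37. It was 0.98 for Cd3g (percentile 99.9), 0.80 for Ms4a1 (percentile 99.8), 0.73 for Cd3e (percentile 99.8), 0.58 for Cd4 (percentile 99.5) and 0.50 for Cd79a (percentile 99.1), where the median gene had 0.154. In AP the same genes had an SD of 0.28, 0.22, 0.08, 0.21 and 0.09, where the median gene had 0.141. The SD was higher in AT than in AP for 9 of the 10 genes, and for 57.1% of all genes. The exception was Cd37, with 0.12 in AT and 0.13 in AP.

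**Figure D3:**
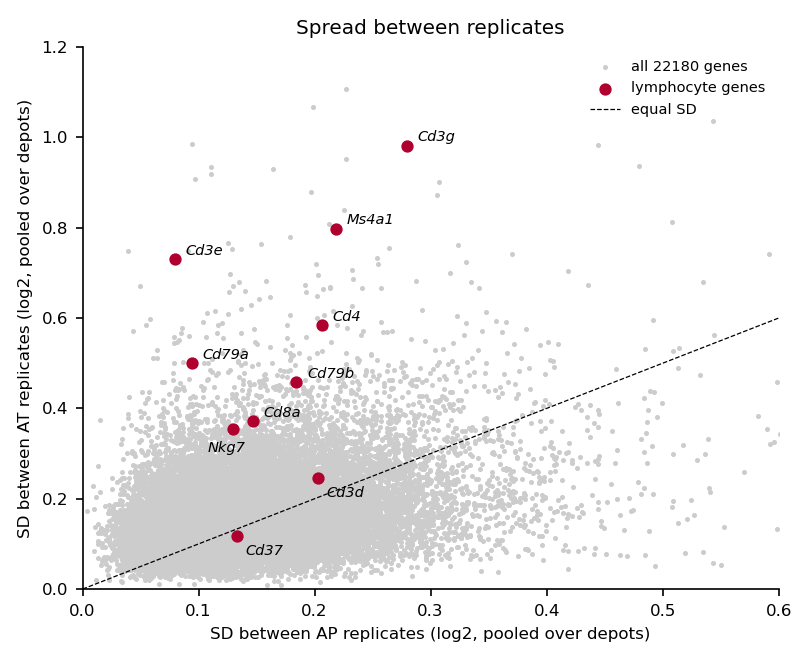
SD between the 3 replicates, pooled over the depots, in AP (horizontal) and in AT (vertical) on the log2 scale, for all genes in grey and the 10 lymphocyte genes in red; 35 genes lie outside the plotted range. Cd3g, Ms4a1, Cd3e, Cd4 and Cd79a lie far above the line of equal SD, at 0.50 to 0.98 in AT, while Cd37 and Cd3d lie near it.

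The T and B cell genes shared some of their high tissue arrays but not all. On the mean of the CD3 chains, each centred on its own mean over the 12 arrays, AT/SAT 1, 2 and 3 were at 1.10, 0.94 and -0.24, and AT/VAT 1, 2 and 3 at -0.02, 0.76 and -0.12. On the mean of Cd79a, Cd79b and Ms4a1, centred alike, they were at -0.36, 0.49 and -0.22 in SAT and at 0.96, 1.26 and 0.04 in VAT. AT/SAT 1 was thus high for the CD3 genes and low for the B cell genes, while AT/VAT 1 was high for the B cell genes and well below AT/SAT 1 for the CD3 genes. AT/SAT 2 and AT/VAT 2 were high for both, and AT/SAT 3 and AT/VAT 3 lay little above the AP arrays for both. All 6 AP arrays were between -0.59 and -0.27 on the CD3 mean and between -0.59 and -0.24 on the B cell mean. The mean level of the macrophage list was 8.29, 7.84 and 8.52 on AT/SAT 1, 2 and 3, highest where the CD3 mean was lowest. On AT/VAT 1, 2 and 3 it was 7.96, 8.08 and 7.91, in the same order as the CD3 and B cell means.

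**Figure D4:**
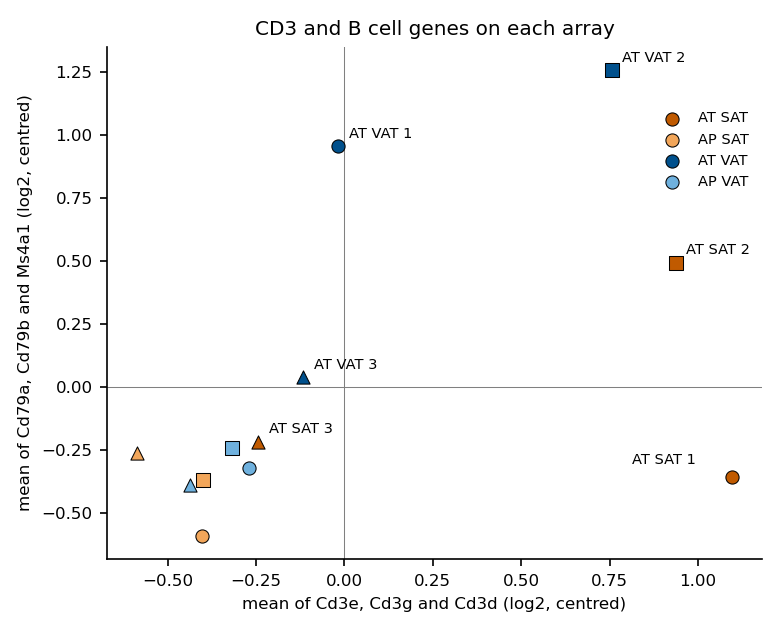
Mean of Cd3e, Cd3g and Cd3d (horizontal) and mean of Cd79a, Cd79b and Ms4a1 (vertical) on each array, in log2 units centred on each gene's mean over the 12 arrays; colours are groups, and circles, squares and triangles are replicates 1, 2 and 3. The AP arrays sit together at the lower left, and the AT arrays spread out to 1.10 on the CD3 axis and to 1.26 on the B cell axis.

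Genes with the pattern most like these were found by the mean absolute difference of centred values over the 12 arrays. Nearest to the CD3 mean were the coactivator gene Ppargc1b (0.13), Stat4, a transcription factor of T and NK cells (0.16), Atp8b4 (0.16), Clec4d (0.16) and Fcgr4 (0.18), on a range of the CD3 mean of 1.68. Stat4 was at 5.42, 4.82 and 4.33 in AT from SAT and at 4.62, 5.12 and 4.21 in AT from VAT. Nearest to the B cell mean were Fam110c, Kcnj2, F8, Kcnj15 and Dctn3 (0.21 to 0.22, on a range of 1.85), and nearest to Nkg7 were Lysmd3, Lnpk, Fancc, Wdr82 and Tmem128 (0.11 to 0.13, on a range of 1.06).

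Other lymphocyte genes gave a thinner picture than the 10. Of 16 further T cell genes, 2 were lower in AP over both depots and 0 were higher, against 20.5% and 22% of all genes. The lower count was thus not above the share of all genes. At limma's unadjusted p under 0.05, 0 were higher too. The 2 lower genes were the adhesion receptor Cd2 (-0.53, SE 0.13, limma adjusted p = 0.00331) and the CD8 beta chain Cd8b1 (-0.33, SE 0.10, adjusted p = 0.0164). The median of that list was -0.08. Cd2 followed the CD3 chains in tissue, at 6.21, 5.69 and 5.30 in AT from SAT and at 5.49, 5.96 and 5.54 in AT from VAT. Of 8 genes tested from a list for regulatory T cells, 5 were higher in AP over both depots and 1 was lower. By depot, 1 was higher and 1 lower in SAT, and 5 were higher and 0 lower in VAT, while the interaction called 1 of the 8. The shares of all genes were 16.1% higher and 16.3% lower in SAT, 15.8% and 16.8% in VAT, and 2.15% for the interaction. In SAT only Tnfrsf18 (0.42, limma adjusted p = 0.0242) and Ikzf2 (-1.09, adjusted p = 0.000112) passed. Over both depots the chemokine receptor Ccr8 rose by 0.96 (SE 0.12), Il2ra by 0.69 (SE 0.14), Klrg1 by 0.61, Tnfrsf18 by 0.45 and the lineage factor Foxp3 by 0.27, while Ikzf2, a factor shared with other lymphocytes, fell by 0.74 (SE 0.12). Il2ra, Klrg1 and Tnfrsf18 are also made by other activated or cytotoxic lymphocytes. Ccr8 was high in AP from VAT only, at 5.43, 5.31 and 5.34, against 3.75, 3.82 and 4.10 in AP from SAT and 3.23 to 3.97 in AT. Its means in AP from SAT and in AT of both depots were near background. By depot its limma difference was 1.67 in VAT (adjusted p = 1.34e-06) and 0.24 in SAT (adjusted p = 0.33). Foxp3 was at 4.47 to 4.77 in AP and at 4.11 to 4.68 in AT over both depots. In SAT the AP and AT values overlapped, with a difference of 0.13 (limma adjusted p = 0.465). In VAT all AP values, at 4.77, 4.58 and 4.47, lay above those of AT, at 4.11, 4.12 and 4.38. The difference there was 0.40 (limma adjusted p = 0.0167).

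The B cell list of 19 further genes had 10 lower in AP over both depots and 0 higher by limma (11 and 0 at an unadjusted p under 0.05), with a median of -0.27. The shares of all genes were 20.5% lower and 22% higher. The IgM heavy chain gene Ighm fell by 1.72 (SE 0.22) and the B cell scaffold gene Bank1 fell by 1.63 (SE 0.12). Ighm was at 9.23, 9.90 and 10.38 in AT from SAT and at 10.46, 10.86 and 11.42 in AT from VAT, highest on AT/SAT 3 and AT/VAT 3, where the B cell mean was not. Bank1 was at 6.41, 6.37 and 6.81 in AT from SAT, highest on AT/SAT 3 like the macrophage list, and at 6.62, 6.69 and 6.03 in AT from VAT. Btk fell by 1.33 and Blnk by 0.88, and in AT from SAT both were lowest on AT/SAT 2, like the macrophage list. Within AT from SAT, Cd22 and Cxcr5, also called lower, were highest on AT/SAT 2, at 4.44 and 5.38. Within AT from VAT, Cd22 was highest on AT/VAT 2, at 5.10, and Cxcr5 on AT/VAT 1, at 5.38. The part of other leukocytes in the count of this list was not tested. The B cell master factor Pax5 was at -0.05 (limma adjusted p = 0.776). Between the tissues, 2 of the 19 were higher in VAT, the complement receptor Cr2 by 0.62 (SE 0.14, limma adjusted p = 0.0171) and the plasma cell gene Mzb1 by 0.45 (SE 0.12, adjusted p = 0.0438). Among all genes, 2.8% were higher there. Cr2 was at 4.07, 4.44 and 3.76 in AT from VAT and at 3.48, 3.41 and 3.52 in AT from SAT. Its values were highest on AT/VAT 1 and 2, as for Ms4a1 and Cd79a, and its subcutaneous mean was near background.

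Of 17 NK and cytotoxic genes, 3 were higher in AP over both depots and 2 lower, with a median of 0.09, and neither share was above that of all genes (22% and 20.5%). The receptors Klrk1 and Klrd1 were at -0.61 (SE 0.19) and -0.41 (SE 0.15), and the chemokine Xcl1, the granzyme Gzmk and the factor Tbx21 rose by 0.54 (SE 0.13), 0.29 (SE 0.07) and 0.25. Of 10 lymph node and homing genes, 3 were higher in AP over both depots and 1 lower, beside the same 22% and 20.5% of all genes. The selectin Selp, a gene of endothelium and platelets, fell by 1.33 (SE 0.13). Within AT from SAT, the lymphotoxin gene Ltb was at 6.41, 6.43 and 5.80 and the homing receptor Ccr7 at 6.17, 5.65 and 5.63, both with their lowest value on AT/SAT 3, as for the CD3 mean. The B cell chemokine Cxcl13 ran otherwise, at 9.15, 7.52 and 10.55, and was at 11.64 to 12.19 in AP from SAT. Ltb, Ccr7 and Cxcl13 were picked after their values were seen, and the rest of the list was mixed. Glycam1 and Selp were also lowest on AT/SAT 3, whereas Lta, Ltbr and Tnfsf11 were highest there. Madcam1 and Chst4 were lowest on AT/SAT 1. The part of lymph node tissue in the CD3 values was not tested.

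Leukocyte genes as a whole moved more than those of lymphocytes. Of 15 pan-leukocyte genes, 14 were lower in AP over both depots (median -1.35), and of 15 macrophage and monocyte genes, 14 were lower (median -3.06), such as Mrc1 by 4.86 (SE 0.15). The mean level of the macrophage list was 5.08 to 5.34 in AP from SAT, 5.07 to 5.11 in AP from VAT, 7.84 to 8.52 in AT from SAT and 7.91 to 8.08 in AT from VAT. For the T cell list the ranges were 4.66 to 4.73, 4.84 to 4.90, 4.69 to 5.11 and 4.78 to 4.94 in the same order, and for the B cell list 4.62 to 4.80, 4.85 to 4.94, 5.07 to 5.25 and 5.08 to 5.49. Of 9 dendritic cell genes, 4 were lower and 1 was higher. Among all genes, 20.5% were lower and 22% higher over both depots. Under the housekeeping scaling the median of all genes over both depots was 0.63, and 17623 of the 22180 genes were called higher and 1172 lower. Beside these, the T cell list had 13 higher and 0 lower, the regulatory T cell list 7 and 0, and the B cell list 8 and 3. The NK list had 15 and 0, the pan-leukocyte list 1 and 8, and the macrophage list 1 and 14. Most genes of any kind were thus called higher, so a high count of higher genes does not set a list apart. Cd37 and Cd4 can be read in other leukocytes too, and the part of macrophages and dendritic cells in their differences was not tested. None of the defining markers was listed at 0, since RMA gives every probe set a positive value.

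**Figure D5:**
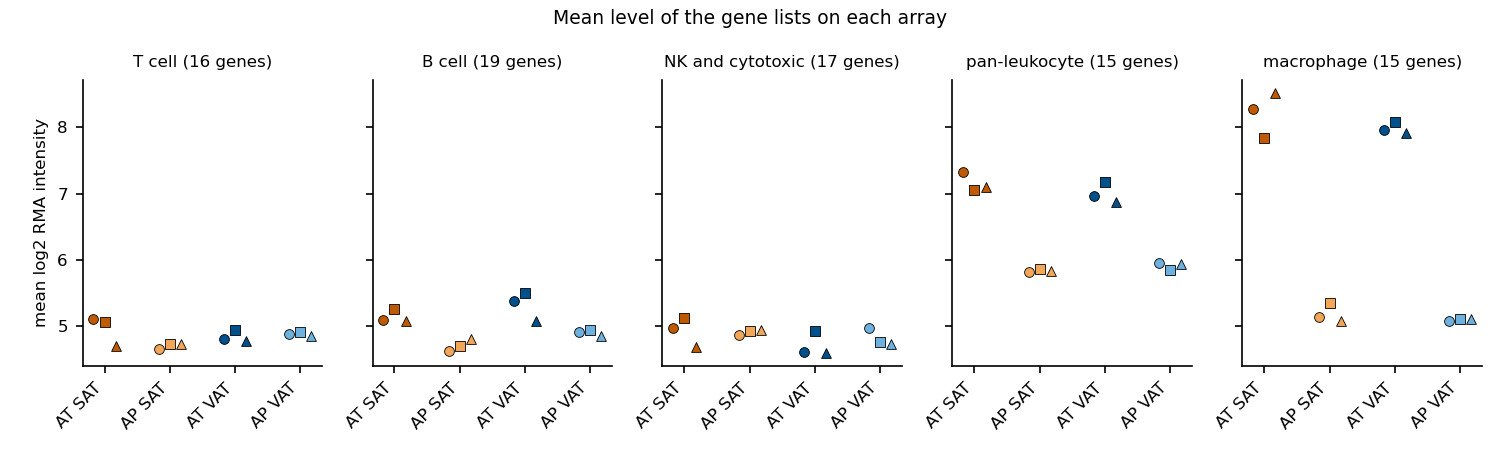
Mean log2 RMA intensity of 5 gene lists on each array, by group, with circles, squares and triangles for replicates 1, 2 and 3; panels share the vertical axis, and levels are compared within a panel only. The pan-leukocyte and macrophage lists separate AP from AT in both depots, at 5.07 to 5.95 against 6.87 to 8.52, while T cell and NK lists overlap.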

How the data were processed

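RNA of 12 arrays, extracted with Qiagen RNeasy Micro and labelled with the WT PLUS kit, was measured on Affymetrix arrays. The deposited values are log2 intensities that the authors made with Affymetrix Expression Console 1.3.0.187 and RMA (background correction, quantile normalization and probe set summary), per the submitters' processing notes. The annotation library is not given in the sources used here. RMA compresses differences of low values, and its normalization across arrays sets the zero of every difference.

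Of 41345 probe sets, 23521 had 1 gene symbol, 1814 several and 16010 none in the platform annotation. Of several per gene, the one with the highest mean over the 12 arrays was kept, giving 22180 genes. One model with a mean per group was fitted over all 12 arrays with limma 3.58.1 in R 4.3.3 (lmFit, eBayes; 8 residual and 6.84 prior degrees of freedom), and p-values were adjusted by Benjamini-Hochberg over all genes. The 3 arrays a group limit the precision, and an exact permutation test of 3 against 3 cannot go below p = 0.1. No 2 arrays held identical values.

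The 10 genes, the gene lists and the tests were chosen with earlier results of these data known. From each list, up to 2 called genes of lowest and 2 of highest difference were named. Foxp3, Klrg1, Tnfrsf18, Tbx21, Ltb, Ccr7, Cxcl13, Stat4's single values, Pax5, Btk, Blnk, Cd22 and Cxcr5 were picked after their values were seen. The fit was tested on simulated data for AP minus AT in SAT over 22180 genes. Of genes changed by 0.5 (log2), 21 of 50 were called, against 47 of 50 changed by 1 and 50 of 50 changed by 2. Among unchanged genes, 15 were called. The simulation used normal noise with the same spread in every group for a gene, and it changed few genes. Its shares do not carry over to the lymphocyte genes, most of which varied more in AT than in AP. Replicate numbers were not used as pairs, because the labels do not say that they mark shared animals. Deviations from group means had r from -0.28 to 0.16 in 18 same-numbered pairs and from -0.18 to 0.31 in 36 others. With 3 arrays a group, these values cannot settle whether animals were shared. Alternatives were quantile, cyclic loess and housekeeping scaling, other variance models, array weights, replicate blocks, a filter on dim genes, the mean over probe sets, a minimum log2 difference of 1, the compared groups alone, and each array left out.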

Additional observations from a re-analysis of the deposited data

How the results depend on the processing

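Between AP and AT in SAT, 4 of the 10 genes were called. The count was 2 with a trended, robust variance, 2 with a log2 minimum of 1, and 2 to 5 when 1 array was left out. In VAT, 5 were called and leaving out 1 array gave 2 to 5. Over both depots, 7 were called and 2 at a log2 difference of at least 1. Between the tissues 1 gene was called, Cd79a, with 0 under a random replicate block (limma adjusted p = 0.0656), 0 with the compared groups alone, 0 at a log2 difference of at least 1, 2 under the housekeeping scaling, and 0 to 2 on leaving out 1 array. For the interaction, leaving out 1 array gave 0 to 1. The fixed replicate block changed none of these counts, with 4 and 5 in SAT and VAT and 7 over both depots.

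Signs turned under quantile normalization for Nkg7 in SAT (0.019), Cd3d and Cd8a in VAT (-0.0485 and -0.0365) and Cd3g between the AP depots (-0.005), and under cyclic loess for Cd3d and Cd8a in VAT (-0.0816 and -0.0743). Under the housekeeping scaling, AP minus AT turned in SAT for Cd3d (0.43), Cd8a (0.23), Ms4a1 (0.15), Cd79a (0.55), Cd79b (0.12) and Nkg7 (0.64), in VAT for Cd3e (0.22) and Cd4 (0.25), and over both for Cd3d (0.51), Cd4 (0.0483) and Cd8a (0.41). Of these, Cd79a and Nkg7 in SAT and Cd3d and Cd8a over both were called higher. Without a turn of sign, Cd3d (0.58), Cd8a (0.59) and Nkg7 (0.76) in VAT and Nkg7 over both (0.70) were called higher too. The same scaling turned VAT minus SAT in AP for Cd79a (0.06) and Nkg7 (0.04), and in AT for Cd3d (0.16), Cd8a (0.10) and Cd37 (0.32). It moved the median of all genes to 0.68, 0.58 and 0.63 in SAT, VAT and both depots, and the housekeeping genes themselves differed, for example Sdha (-1.64) and Rplp0 (0.60).

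Leaving out 1 array also turned signs, with ranges of -0.14 to 0.10 for Nkg7 and -0.31 to 0.22 for Cd79a in SAT, and of -0.11 to 0.13 for Cd3d, -0.05 to 0.18 for Cd8a and -0.0133 to 0.43 for Nkg7 in VAT. Over both depots Nkg7 ranged from -0.0117 to 0.21. Between the AP depots the ranges were -0.17 to 0.12 for Cd3g, -0.0567 to 0.18 for Cd3d and -0.0467 to 0.18 for Cd4. Between the tissues they were -0.33 to 0.01 for Cd3d, -0.38 to 0.0417 for Cd8a and -0.0733 to 0.0517 for Cd37, and for the interaction -0.50 to 0.0033 for Cd79b and -0.0033 to 0.44 for Nkg7. The cause of these changes was not tested.

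Over all genes, 7186 were called in SAT, 7239 in VAT, 9430 over both, 1250 between the AP depots, 1009 between the tissues and 476 for the interaction. A log2 difference of at least 1 left 2204, 1966, 1986, 370, 251 and 221. The housekeeping scaling gave 16851 in SAT (15940 higher, against 3571), 12948 in VAT (11998 higher, against 3507), 18795 over both (17623 higher, against 4890), 709 between the AP depots and 149 for the interaction. The tissue count was 601 with the compared groups alone and 660 to 1026 on leaving out 1 array, and the interaction count 264 to 626. The filter on dim genes kept 16375 genes and all 10 lymphocyte genes.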

Other observations

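Jchain, the joining chain of secreted IgM and IgA and a product of plasma cells, was picked after its values were seen. It was at 6.08 and 7.62 on AT/VAT 1 and 2 and at 3.47 on AT/VAT 3. In subcutaneous tissue it was at 4.91, 6.35 and 3.92. Its tissue arrays thus fell in the order of Cd79b in VAT, and AT/SAT 2 was highest in SAT, as for Cd79a. Chst4, a sulfotransferase of the high endothelial venules through which lymphocytes enter lymph nodes, was higher in AT from VAT than in AT from SAT by 2.00 (SE 0.22, limma adjusted p = 4e-05). It was also higher in AP from VAT than in AP from SAT, by 2.27 (limma adjusted p = 6.08e-06). In the same comparison 2 of 9 endothelial genes were called higher, Kdr by 1.37 and Emcn by 0.81, and 0 lower. Of all genes, 5.64% were called there in either direction. The source of Chst4 in AP was not tested. The Chst4 values were 6.36, 6.49 and 7.34 in AP from VAT, above the 5.90, 6.10 and 5.90 of AT from VAT.

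Ptprc, the leukocyte common antigen, was at 8.51, 8.07 and 7.79 on AT/SAT 1, 2 and 3 and at 7.62, 8.01 and 7.38 on AT/VAT 1, 2 and 3. In both depots it was lowest on the third replicate, which also had the lowest CD3 mean of its depot.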
